A study of Xenopus laevis with 74 samples.

Results

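The genes described here build multiciliated cells, the epidermal cells that carry tufts of beating cilia on the skin of the Xenopus embryo. The set was chosen by symbol: every gene named mcidas, ccno, foxj1 (also foxj1.2), rfx2 or myb after the ending .L or .S is removed. X. laevis carries a pair of subgenomes, and L and S mark the homeologous copies from each, so the set holds 12 genes of the 45656 in the count table. All 12 were among the 27424 genes analysed, those reaching 15 counts in any library. With L and S summed they make 6 genes. The count table listed an mcidas gene without an ending, which was taken as mcidas.S by its synonym in the RefSeq annotation. Count results for mcidas.S rest on that.

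Multiciliated cells are specified in the inner layer of the ectoderm, where Notch signaling limits their number, and later move to the surface. Mcidas (multicilin) binds E2F and DP factors to switch on genes for making many centrioles at once, Ccno (a cyclin-like protein) acts in the same step, and Myb is a transcription factor that acts with them. Foxj1 and Rfx2 are transcription factors that switch on genes of motile cilia and of ciliary assembly, and Foxj1 also acts outside multiciliated cells, in tissues whose cells bear a single motile cilium.

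RNA was sequenced from wild-type X. laevis animal caps, ectodermal explants cut at the blastula stage, at 6 stages from blastula (stage 9) through stages 10, 10.5, 11 and 12 to early neurula (stage 13). Untreated explants formed the epidermal lineage, and Noggin at 100 ng/uL gave the neural, BMP4/7 at 20 ng/uL the ventral mesoderm and Activin at 160 ng/uL the endoderm lineage, with doses as in the sample labels (the methods text gives the same numbers in other units). By the methods text, the Noggin explants were kept in a medium low in calcium and magnesium. Activin and BMP4/7 were given in Marc's Modified Ringer's, and all 3 media held serum albumin. The effects of medium and Noggin thus cannot be told apart. Each of the 24 groups of lineage and stage had 3 libraries, apart from ventral mesoderm at stage 11 with 5, so that 74 libraries were used. The paper takes stage 9 as time zero, and Activin and BMP4/7 treatment started then. Libraries of stage 9 thus carry a lineage label at the start of treatment. An explant is a mixed tissue, and fewer multiciliated cells cannot be told apart from less RNA per cell in these data.

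The libraries held from 11938338 to 23215739 counted reads. At stage 13 the labelled lineages carried their own markers. The summed level of 2 epidermal markers, an epidermal keratin (xk81a1) and dlx3, ranged from 2082 to 5924 TPM (a level scaled to gene length and library size) in epidermal explants, 1236 to 2576 TPM in ventral mesoderm, 69.1 to 122 TPM in neural and 88.4 to 114 TPM in endoderm explants. Ventral mesoderm thus held epidermal marker RNA beside its own markers t and evx1, which summed to 331 to 966 TPM and to at most 51.8 TPM in any other lineage. The ventral mesoderm libraries were sequenced on a HiSeq and the others on a NextSeq instrument, and in that comparison the effects of machine and lineage cannot be told apart.

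The genes rose in epidermal explants at different stages and from very different starting levels. Mcidas, ccno, foxj1, foxj1.2 and myb reached mean levels of 317 ± 103, 278 ± 10.8, 310 ± 73.6, 62.9 ± 13.3 and 54.7 ± 2.12 TPM at stage 13 (SD, n = 3, L and S summed). Rfx2 was already at 72.2 ± 21.2 TPM at stage 9 and stood at 219 ± 16.6 TPM at stage 13. In endoderm explants at stage 13 mcidas, foxj1.2, myb, foxj1 and ccno averaged 4.49 TPM or less, while rfx2 stood at 91.7 ± 17.3 TPM.

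**Figure D1:**
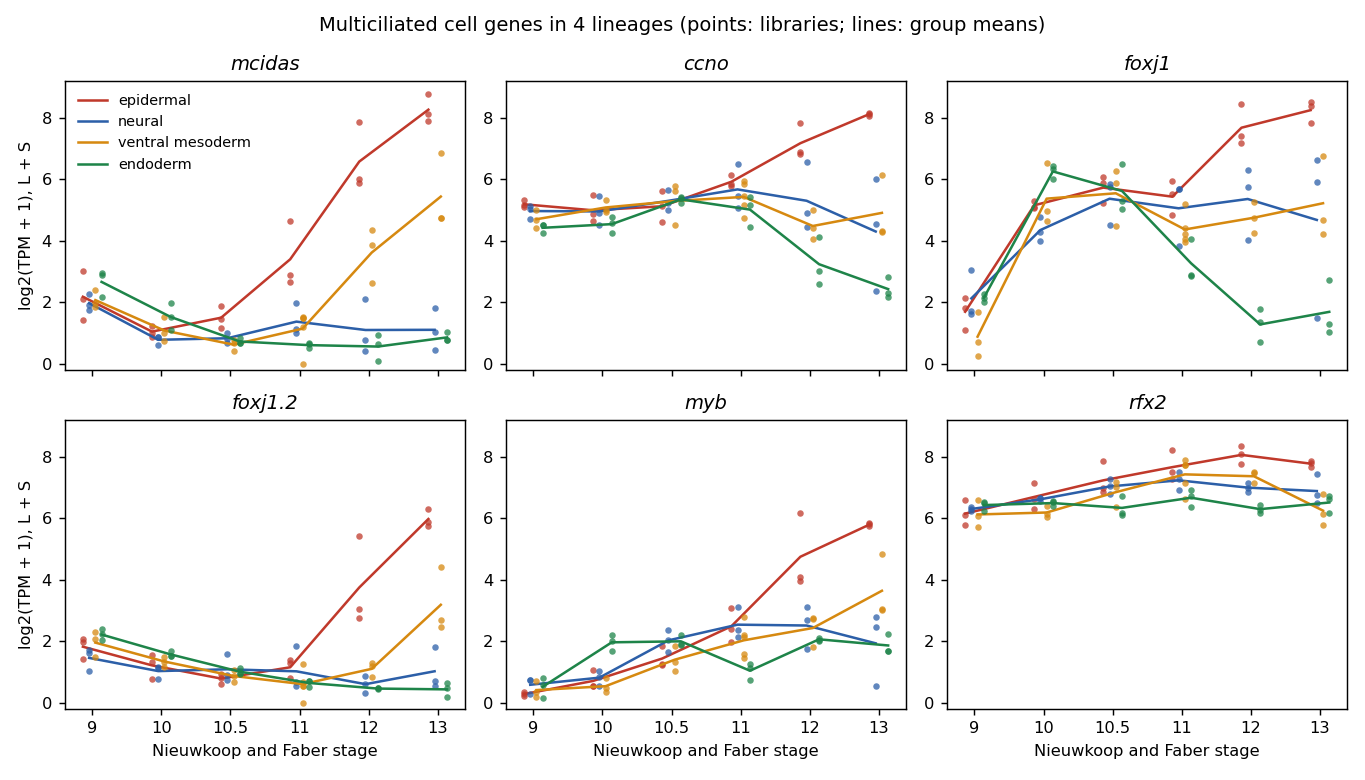
Level of each gene, as log2(TPM + 1) with L and S summed, against stage for the 4 lineages; points are libraries and lines join group means of the log values. At stage 13 every epidermal library lay above every library of the other lineages for all 6 genes. With L and S apart, 10.9%, 13.4% and 17.8% of all genes did so against neural, ventral mesoderm and endoderm explants. Foxj1 was higher in every stage 10 library than in any stage 9 library, in all 4 lineages.

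Mcidas, the regulator at the head of the set, was low until stage 10.5 and then rose steeply. The epidermal libraries of replicates 1, 2 and 3 held 1.66, 3.30 and 7.08 TPM at stage 9, 0.84, 1.36 and 1.01 TPM at stage 10, and 2.67, 1.21 and 1.76 TPM at stage 10.5. They reached 23.9, 5.37 and 6.37 TPM at stage 11, 231, 57.6 and 63.3 TPM at stage 12 and 434, 240 and 278 TPM at stage 13. Replicate 1 was the highest of the 3 from stage 10.5 onward. The other lineages did not share this rise to the same extent. Ventral mesoderm held 19.4, 13.5 and 5.22 TPM at stage 12 and 114, 25.6 and 25.8 TPM at stage 13. Neural explants at stage 13 held 0.36, 2.52 and 1.06 TPM, and endoderm explants 1.03, 0.71 and 0.70 TPM. At stage 13 the mean epidermal level was thus 5.77 times that of ventral mesoderm, while the neural and endoderm means lay below those of stage 9.

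Ccno started from a clear level at stage 9 in all 4 lineages and had its main rise in epidermal explants between stages 11 and 13. Epidermal libraries held 34.6, 33.0 and 38.9 TPM at stage 9, 69.7, 53.9 and 56.2 TPM at stage 11, 227, 116 and 112 TPM at stage 12, and 288, 281 and 267 TPM at stage 13. Neural explants at stage 13 varied widely, with 4.15, 63.3 and 22.1 TPM, and ventral mesoderm held 69.4, 18.9 and 18.3 TPM. In endoderm explants ccno fell to 6.10, 3.87 and 3.49 TPM, and both copies passed the test for a fall from stage 9 (log2 fold change -1.36 ± 0.41 SE for ccno.L and -2.12 ± 0.41 for ccno.S, adjusted p = 0.0200 and 0.00228).

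Foxj1 followed a course of its own, with an early rise that was not limited to epidermal explants. From 3.40, 1.15 and 2.54 TPM at stage 9, the epidermal libraries went to 32.6, 33.2 and 38.3 TPM at stage 10 and stayed between 27.7 and 66.1 TPM to stage 11. They then held 353, 168 and 143 TPM at stage 12 and 227, 368 and 335 TPM at stage 13. Replicate 1 was highest at stage 12 and lowest at stage 13. At stage 10 the endoderm libraries held more, 63.3, 85.5 and 79.5 TPM, than every epidermal library, and foxj1.S was called lower in epidermal than in endoderm explants at that stage (log2 fold change -1.24 ± 0.25, adjusted p = 0.0297), the only gene of the set, against 2.51% of all genes. Endoderm explants held little foxj1 later, 2.44, 0.62 and 1.55 TPM at stage 12. Neural explants at stage 13 held 1.82, 97.7 and 59.2 TPM, so that replicate 1 stood apart from the others.

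Foxj1.2, a second forkhead gene of the foxj1 type, had no such early rise. Epidermal libraries held 1.67, 3.17 and 2.96 TPM at stage 9, at most 1.59 TPM at stage 11, 42.4, 7.34 and 5.72 TPM at stage 12 and 78.0, 57.7 and 53.1 TPM at stage 13. Its course over stages resembled that of mcidas more than that of foxj1. Over the 24 group means of log2(TPM + 1), which share their libraries, its Pearson correlation was 0.919 with mcidas and 0.439 with foxj1.

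Myb was close to undetected at stage 9, with 0.27, 0.22 and 0.15 TPM (3 to 7 counts per epidermal library). It reached 7.48, 2.96 and 4.22 TPM at stage 11, 72.0, 14.5 and 16.2 TPM at stage 12 and 55.2, 56.5 and 52.3 TPM at stage 13. The 3 libraries thus lay far apart at stage 12 and close together at stage 13. Rfx2 changed least of the set. Its epidermal libraries held 95.4, 53.8 and 67.5 TPM at stage 9, 323, 270 and 218 TPM at stage 12 and 201, 234 and 223 TPM at stage 13, and it was expressed in all 4 lineages throughout, with no library under 51.3 TPM.

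Counts were compared by the quasi-likelihood test of edgeR, with p-values adjusted over all 27424 genes and called at an adjusted p of at most 0.05. From stage 9 to stage 13 in epidermal explants all 12 genes were called higher, against 27.8% of all genes, and from stage 9 to stage 12 all 12, against 23.2%. The log2 fold changes from stage 9 to 13 were 9.02 ± 0.68 (SE) for mcidas.L, 6.26 ± 0.63 for mcidas.S, 4.59 ± 0.23 for ccno.L, 3.52 ± 0.18 for ccno.S, 7.37 ± 0.36 for foxj1.L and 8.23 ± 0.75 for foxj1.S. They were 4.60 ± 0.35 for foxj1.2.L, 7.40 ± 0.54 for foxj1.2.S, 2.41 ± 0.29 for rfx2.L, 2.23 ± 0.21 for rfx2.S and 8.38 ± 0.41 for myb.S. Myb.L was at or under 3 counts in every stage 9 library, so no fold is given for it. TMM scaling raised these fold changes by 0.58 on the log2 scale relative to library size alone, and with library size alone all 12 were still called at both stages.

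The stage from which a gene was called above stage 9 and stayed so defines its onset. In epidermal explants this was stage 10 for foxj1.L, stage 10.5 for foxj1.S, rfx2.L, myb.L and myb.S, stage 11 for mcidas.L, ccno.L, ccno.S and rfx2.S, and stage 12 for mcidas.S, foxj1.2.L and foxj1.2.S. A gene whose RNA first fell must pass its stage 9 level again to be called, so its onset can lag its rise. At stages 9, 10.5 and 11 mcidas.S averaged 3.23, 0.41 and 2.52 TPM in epidermal explants, and foxj1.2.L 2.27, 0.56 and 0.59 TPM. Replicate numbers pair the libraries within this lineage. With the replicate block the onset of foxj1.S, rfx2.L and myb.S moved to stage 10 and that of ccno.L to stage 10.5, while mcidas.S and foxj1.2.L moved to stage 13, and 10 of the 12 genes were called at stage 12, against 25.5% of all genes. At stage 10, 1 gene was called higher, against 0.715% of all genes, and 4 with the block, against 17.7%. The block also called mcidas.S and foxj1.2.L lower at that stage, against 18.3%. At stage 10.5, 5 were called higher, against 12.0%, and at stage 11, 9, against 19.1%. Mcidas.S and foxj1.2.L were called lower at stage 10.5 than at stage 9, against 14.3% of all genes, with log2 fold changes of -2.44 ± 0.58 and -1.84 ± 0.45 (adjusted p = 0.0213 and 0.0224), and foxj1.2.L still at stage 11, against 20.5% (-1.82 ± 0.54, 0.0296).

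From stage 10 onward no gene of the whole table was called by edgeR between successive epidermal stages without the block (0.0% of all genes). At an unadjusted p under 0.05 there were 4, 7, 11 and 4 of the 12 genes in the steps to stages 10.5, 11, 12 and 13. No share of all genes stands beside these counts, so they cannot be set against the whole table. From stage 11 to 12 DESeq2 called 10 of the 12 genes higher, against 3.36% of all genes, and edgeR with the block all 12, against 14.8%. From stage 12 to 13 DESeq2 called 2, against 4.4%, and the block 6, against 13.9%, which were both copies of mcidas, ccno and foxj1.2. In the fit with the block, rfx2.L, rfx2.S, foxj1.L, foxj1.S, myb.L and myb.S were not called between these stages. The edgeR count for stages 12 and 13 changed most when 1 library was left out. Without epidermal replicate 1 of stage 12, 9 genes were called higher, a count with no share of all genes beside it. In that library the epidermal markers summed to 1669 TPM, against 560.3 and 762 TPM in replicates 2 and 3, and 2 genes of basal epidermis to 66.7 TPM, against 16.3 and 16.5 TPM. The neural markers summed to 154 TPM, against 368 and 323 TPM. Their part in the result was not tested.

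The L and S copies did not contribute equally over time. In epidermal explants mcidas.L made up 19.2 ± 5.60% of mcidas TPM at stage 9 and 20.3 ± 16.9% at stage 10 (SD, n = 3). Its share was 75.7 ± 9.48% at stage 10.5 and 83.5 ± 8.10% at stage 11, and it came down to 68.1 ± 6.68% and 58.9 ± 4.58% at stages 12 and 13. At stage 9 the S copy thus carried most of the mcidas RNA in every epidermal library, and from stage 10.5 the L copy did. The mean share of mcidas.L at stage 9, the start of treatment, was also low in explants labelled for the other lineages. It was 12.3 ± 4.65% in neural, 20.0 ± 17.7% in ventral mesoderm and 10.1 ± 0.30% in endoderm explants. In ventral mesoderm at stage 13 it was 62.2 ± 1.06%.

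The shares of ccno, foxj1.2 and foxj1 differed between stages as well. Ccno.L went from 31.2 ± 5.49% of ccno TPM at stage 9 to 53.9 ± 2.10% at stage 13, and foxj1.2.L from 87.2 ± 5.72% to 51.7 ± 7.93%. At stage 9, the start of treatment, ccno.L was at 37.3 ± 13.5% in neural, 67.05 ± 9.77% in ventral mesoderm and 57.5 ± 4.09% in endoderm explants. Sets of libraries of the same stage thus differed in the ccno share at least as widely as the epidermal stages did. Foxj1 went the other way between stages 10 and 13, from 60.9 ± 10.6% L to 37.2 ± 3.16% L. Rfx2.L and myb.L lay at 40.7 ± 4.02% and 52.1 ± 22.7% at stage 9 and at 48.6 ± 1.42% and 47.9 ± 3.54% at stage 13. These shares are levels with no test, and those of stages 9 to 10.5 rest on few counts for mcidas, foxj1.2 and myb. Reads shared between homeologs were assigned by the authors' alignment, which can move RNA from a copy to its partner.

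Against neural explants at stage 13, 8 of the 12 genes were called higher in epidermal explants, against 2.98% of all genes. They were mcidas.L (log2 fold change 7.37 ± 0.66, adjusted p = 0.00102), mcidas.S, ccno.L (3.40 ± 0.67, 0.0250), foxj1.2.L (6.48 ± 0.66, 0.00162), foxj1.2.S (7.45 ± 0.67, 0.00102), rfx2.S (1.54 ± 0.28, 0.0169), myb.L (5.32 ± 0.92, 0.0150) and myb.S (3.37 ± 0.64, 0.0220). Mcidas.S held 0, 1 and 2 counts in the neural libraries, so no fold is given for it, and its mean level in epidermal explants was 134 TPM. Ccno.S, foxj1.L, foxj1.S and rfx2.L were not called, with log2 fold changes of 3.31 ± 0.84, 2.61 ± 1.09, 2.93 ± 0.88 and 0.63 ± 0.26. All epidermal libraries lay above all neural libraries in TPM for 11 of the 12 genes, every one except rfx2.L, against 10.9% of all genes.

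The neural libraries differed from each other in the same genes. Replicate 1 held the least foxj1, ccno and myb, and its summed level of 5 genes of the node and floor plate, midline tissues that bear single cilia, was 12.3 TPM against 103 and 58.9 TPM in replicates 2 and 3. Without dand5, which was also high at stage 9, the sums were 11.8, 93.1 and 48.2 TPM. The 5 genes summed to between 199.9 and 269 TPM in endoderm explants, and to 22.5, 106 and 96.1 TPM in the epidermal libraries, so that these levels are not particular to neural explants. In neural replicate 1 the endoderm markers summed to 104 TPM against 430.5 and 370.0 TPM, and the neural markers sox2, sox3 and otx2 to 2276 TPM against 843 and 1262 TPM. The part of these differences in the foxj1 result was not tested. Without neural replicate 1, 11 of the 12 genes were called, and without neural replicate 2, 9. Without neural replicate 3 there were 5, and without epidermal replicate 1, 2 or 3 there were 4, 5 and 5. These counts have no share of all genes beside them.

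Calls against neural explants began at stage 11, when mcidas.L (log2 fold change 3.26 ± 0.66) and rfx2.S (1.30 ± 0.27) were called higher, against 1.21% of all genes. At stage 12, 7 genes were called, against 6.17%: both copies of mcidas and foxj1.2, foxj1.S, rfx2.S and myb.L. All 12 had an unadjusted p under 0.05, and DESeq2 called 12, against 9.05%, and the fit of all libraries 11, against 12.1%. Without neural replicate 3 of that stage there were 4. The median log2 fold change of all genes was -0.12 at stage 12 and -0.14 at stage 13 in this comparison, so that the genes of the set lay above a median just under 0. At stages 9, 10 and 10.5 none was called by edgeR, against 0.0, 0.0 and 0.12% of all genes called higher by edgeR. DESeq2 called none of the 12 either, a result with no share of all genes beside it. At an unadjusted p under 0.05 in edgeR there were 0, 1 and 0.

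**Figure D2:**
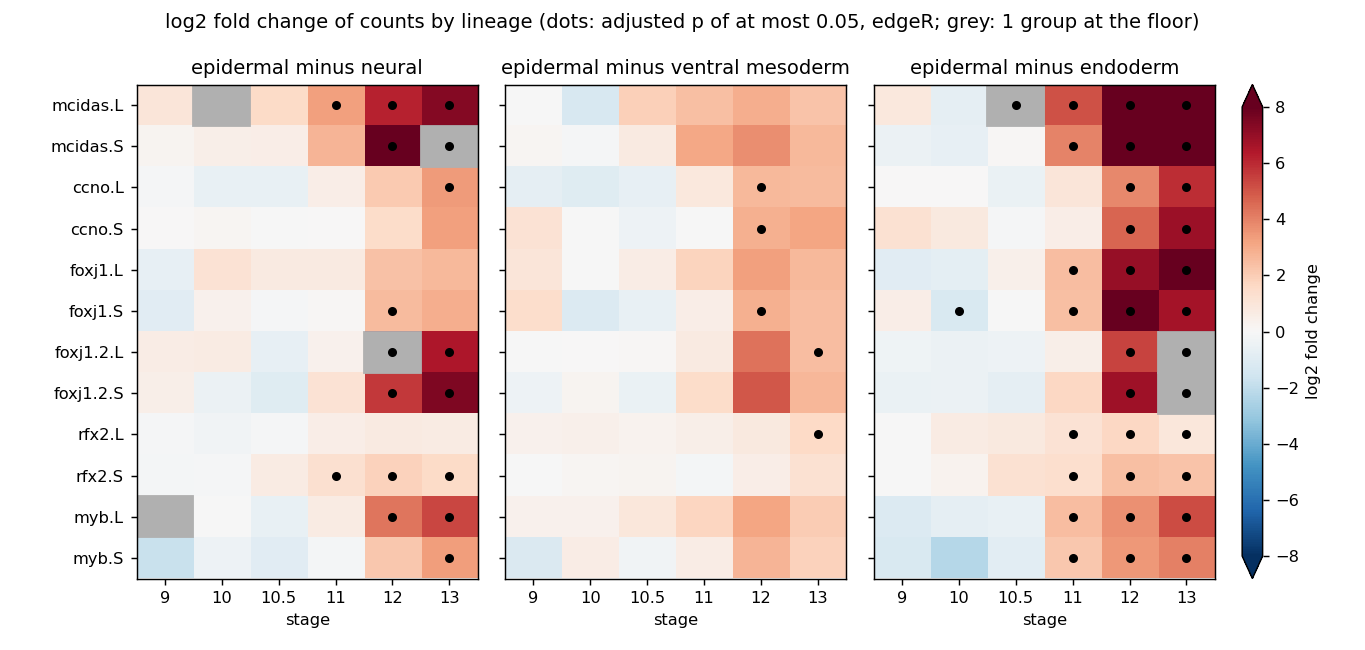
Log2 fold change of counts, epidermal explants minus each other lineage, for the 12 genes (rows) at 6 stages (columns); dots mark an adjusted p of at most 0.05 (edgeR) and grey cells comparisons with a group at or under 3 counts in every library, whose fold is not given. Calls of a higher epidermal level began at stage 11 against neural explants and at stage 10.5 against endoderm explants. At stage 13 there were 8, 2 and 12 against neural, ventral mesoderm and endoderm explants. The shares of all genes called higher were 2.98%, 0.645% and 15.8%.

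Against endoderm explants all 12 genes were called higher in epidermal explants at stages 12 and 13, against 10.4% and 15.8% of all genes. The log2 fold changes at stage 13 were 9.26 ± 0.48 for mcidas.L, 8.52 ± 0.59 for mcidas.S, 5.94 ± 0.39 for ccno.L, 6.86 ± 0.29 for ccno.S, 8.05 ± 0.45 for foxj1.L and 6.69 ± 0.74 for foxj1.S. Those of myb.L and myb.S were 5.2 ± 0.40 and 4.03 ± 0.36. Foxj1.2.L and foxj1.2.S held at most 3 counts in each endoderm library, so no fold is given. Rfx2 differed least, with 0.90 ± 0.18 for rfx2.L (adjusted p = 0.00522) and 2.26 ± 0.18 for rfx2.S (3.13e-05). Every epidermal library lay above every endoderm library for all 12 genes, against 17.8% of all genes.

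Calls against endoderm explants began earlier than those against neural explants, and all these comparisons share the epidermal libraries. Mcidas.L was called at stage 10.5, where the endoderm libraries held 2, 1 and 2 counts, and it was the only gene of the set called higher at that stage, against 3.68% of all genes. Against neural explants that share was 0.12%. Mean epidermal mcidas TPM at stage 10.5 was 2.89 times the endoderm and 2.41 times the neural mean, so the calls do not date a difference in timing. At stage 11, 8 genes were called, against 4.28%: both copies of mcidas, foxj1, rfx2 and myb.

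Ventral mesoderm had lower levels than epidermal explants of all 12 genes at stage 13, with no overlap between libraries, against 13.4% of all genes, yet 2 genes were called, foxj1.2.L (log2 fold change 2.47 ± 0.48, adjusted p = 0.0479) and rfx2.L (1.60 ± 0.17, 0.00894), against 0.645% of all genes. All 12 had an unadjusted p under 0.05. DESeq2 and the fit of all libraries called all 12, against 4.65% and 4.9%. The remaining log2 fold changes ran from 1.19 ± 0.35 for rfx2.S to 3.14 ± 0.63 for ccno.S. At stage 12, 3 genes were called, ccno.L (2.58 ± 0.41), ccno.S (2.81 ± 0.42) and foxj1.S (2.87 ± 0.40), against 0.438%, and mcidas.L and mcidas.S were not called, at 2.89 ± 0.66 and 3.73 ± 1.09. Without ventral mesoderm replicate 2 or 3 of stage 12, no gene of the set was called, although all 12 had an unadjusted p under 0.05 with every library and DESeq2 called 10, against 2.58%.

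The edgeR count at stage 13 changed most when 1 ventral mesoderm library was left out. With that library kept, DESeq2 called all 12, against 4.65% of all genes, so the count also depends on the method. Replicate 1 held 114 TPM of mcidas, 69.4 TPM of ccno, 107 TPM of foxj1, 20.2 TPM of foxj1.2, 27.8 TPM of myb and 111 TPM of rfx2. Replicates 2 and 3 held 25.6 and 25.8, 18.9 and 18.3, 17.7 and 24.8, 5.45 and 4.52, 7.11 and 7.34, and 54.4 and 70.2 TPM of the same genes. Replicate 1 was thus the highest for every gene, and without it all 12 were called higher in epidermal explants. Leaving out any other library of the comparison gave 1 call, or 0 for epidermal replicate 2. These counts have no share of all genes beside them. In ventral mesoderm replicate 1 the epidermal markers summed to 2576 TPM, against 1726 and 1236 TPM in replicates 2 and 3. The markers t and evx1 summed to 331 TPM, against 880 and 966 TPM. Their part in the result was not tested.

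**Figure D3:**
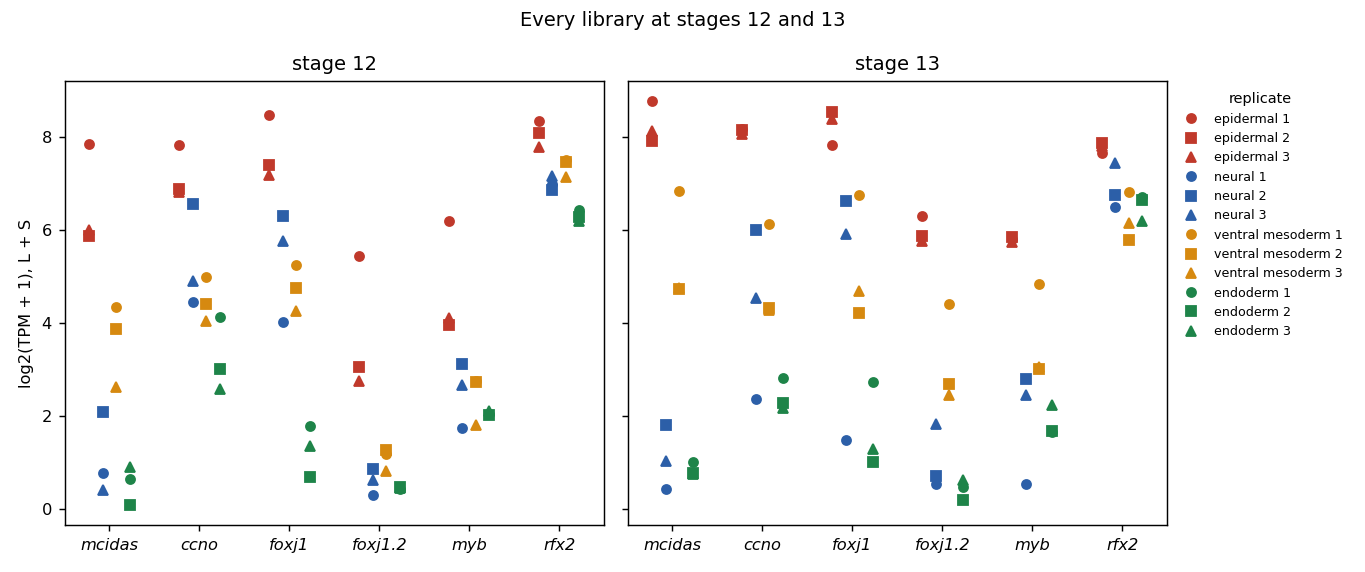
Level of each gene, as log2(TPM + 1) with L and S summed, in every library at stages 12 and 13; colours mark lineages and symbols replicate numbers. Epidermal replicate 1 stood above the other epidermal libraries at stage 12 (mcidas 231 TPM against 57.6 and 63.3 TPM), and ventral mesoderm replicate 1 above the other ventral mesoderm libraries at stage 13 (114 TPM against 25.6 and 25.8 TPM).

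Within ventral mesoderm, 10 of the 12 genes were called higher at stage 13 than at stage 9, against 28.4% of all genes. Mcidas.L rose by 6.70 ± 0.86 on the log2 scale, mcidas.S by 3.89 ± 0.73, foxj1.S by 7.19 ± 1.01, foxj1.2.S by 4.32 ± 1.08, myb.L by 7.36 ± 1.04 and myb.S by 5.48 ± 0.97. Ccno.L and ccno.S were not called, at 1.42 ± 0.55 and 1.56 ± 0.65 (adjusted p = 0.0605 and 0.0740). With any single library of both stages left out, 7 to 12 genes were called, 7 of them without replicate 1 of stage 13. In neural explants 4 genes were called higher at stage 13 than at stage 9, foxj1.L, foxj1.S, rfx2.L and myb.S, against 21.7%, and mcidas.S was called lower, from a mean of 2.57 TPM to 0.05 TPM, against 18.3%. With the block foxj1.L was not called (adjusted p = 0.10) and mcidas.L was (0.0461). In endoderm explants rfx2.L and myb.S were called higher, against 32.5%, and mcidas.S, ccno.L, ccno.S, foxj1.L and foxj1.2.L lower, against 28.9%. With the block foxj1.S and myb.L were called higher as well, 4 genes in all, against 34.4%.

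The change from stage 9 to 13 was compared between lineages in a single model. It was larger in epidermal than in neural explants for 7 of the 12 genes, against 0.988% of all genes, and larger than in endoderm explants for 11, against 7.85%. Foxj1.L, foxj1.S, ccno.L, ccno.S and rfx2.L were not called against neural explants, and the count was 3 without neural replicate 2 or 3 of stage 9, and 4 without epidermal replicate 2 or 3 of stage 9 or with library size in place of TMM. Rfx2.L was not called against endoderm explants, at 0.95 ± 0.35 (adjusted p = 0.0869). Against ventral mesoderm none of the 12 was called, against 0.0438% of all genes, and DESeq2 called 2, against 1.08%. At an unadjusted p under 0.05 there were 8. Without ventral mesoderm replicate 1 of stage 13, 6 were called. Counts with a library left out, or with library size in place of TMM, have no share of all genes beside them.

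Other genes of the program were followed in lists. The 9 upstream and partner regulators did not move as a group: of 17 genes (L and S apart) 8 were called higher and 8 lower from stage 9 to 13 in epidermal explants, against 27.8% and 26.9% of all genes. Gmnc (GEMC1), which acts before Mcidas, was highest at stages 11 and 12. The epidermal libraries of replicates 1, 2 and 3 held 24.6, 8.63 and 14.4 TPM of gmnc at stage 11, 11.8, 33.5 and 30.6 TPM at stage 12 and 3.08, 8.85 and 6.83 TPM at stage 13. Gmnc thus peaked at stage 11 in replicate 1, which had the most mcidas at those stages, and at stage 12 in the other replicates. The log2 fold change of gmnc.L from stage 12 to 13 was -1.88 ± 0.46, not called without the block (adjusted p = 0.140) and called with it (3.81e-05). In endoderm explants at stage 13 gmnc was listed at 0 in all 3 libraries.

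The gene foxn4 encodes a forkhead factor that acts with Foxj1 in multiciliated cells and rose from 4.89 ± 0.71 TPM at stage 9 to 93.9 ± 26.3 TPM at stage 13 in epidermal explants. Both copies were called higher than in each other lineage at stage 13, with log2 fold changes against ventral mesoderm of 2.03 ± 0.26 for foxn4.L (adjusted p = 0.0165) and 2.83 ± 0.50 for foxn4.S (0.0376). Geminin (gmnn), which binds Mcidas and restrains DNA replication licensing, fell in epidermal explants from 1568 ± 130 TPM to 86.8 ± 6.35 TPM. At stage 13 both copies were called lower than in neural, ventral mesoderm and endoderm explants, where the means were 399, 172 and 529 TPM. The level of e2f4, a partner of Mcidas, fell from 148 ± 16.6 TPM to 15.6 ± 0.87 TPM and was not called between epidermal explants and any other lineage at stage 13. Tfdp1, the DP partner, stood at 55.2 ± 3.05 and 61.2 ± 4.44 TPM at stages 9 and 13.

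Cdc20b, which lies beside mcidas.L in the RefSeq v10.1 annotation, where ccno.L is the neighbour on the other side, was near 0 until stage 12. Its epidermal libraries held 1.90, 0.33 and 0.06 TPM at stage 12 and 14.3, 1.56 and 1.80 TPM at stage 13. Replicate 1 held most of this signal. On the S chromosome ccno.S and mcidas.S are neighbours as well.

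**Figure D4:**
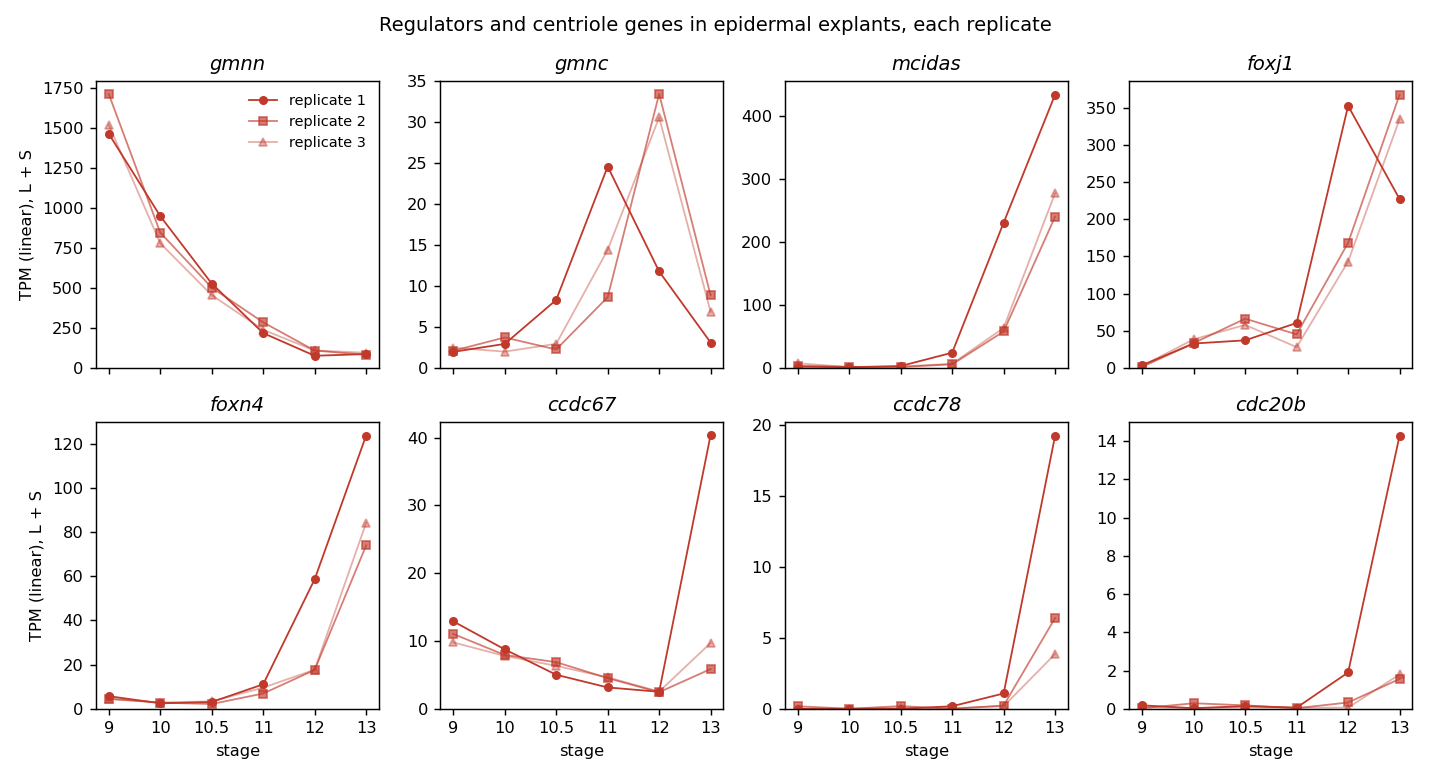
TPM on a linear scale, L and S summed, against stage in epidermal explants, with a line for each replicate, for geminin (gmnn), gmnc, mcidas, foxj1, foxn4 and 3 genes linked to centriole amplification. Gmnc peaked at stage 11 in replicate 1 and at stage 12 in replicates 2 and 3, and ccdc67, ccdc78 and cdc20b rose from stage 12 to 13, most in replicate 1.

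Centriole genes moved in part. Of 17 genes from 11 of the 12 symbols on the list, 10 were called higher and none lower from stage 9 to 13 in epidermal explants, against 27.8% and 26.9% of all genes, with a median log2 fold change of 1.68 over the list and 0.00 over all genes tested. Ccdc67 (deup1), a component of the deuterosome on which new centrioles form, held 12.9, 11.0 and 9.79 TPM in the epidermal libraries at stage 9. It was lower at each successive stage in all 3 replicates until stage 12, at 2.51, 2.45 and 2.53 TPM. At stage 13 it held 40.4, 5.86 and 9.71 TPM, above its stage 9 level in replicate 1 alone. In the other lineages no stage 13 library exceeded 2.93 TPM. Ccdc78, also of the deuterosome, held at most 1.08 TPM in any epidermal library through stage 12 and 19.2, 6.40 and 3.86 TPM at stage 13. Pcm1 (centriolar satellites) and sass6 (the cartwheel of a new centriole) were expressed from stage 9, pcm1 at 388 ± 104 TPM and sass6 at 32.8 ± 2.53 TPM. At stage 13, 3, 4 and 11 of the 17 genes were called higher than in neural, ventral mesoderm and endoderm explants, against 2.98%, 0.645% and 15.8% of all genes, and cep63.L and cep63.S were called lower than in endoderm explants.

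More genes of the motile axoneme were called above stage 9 at stage 13 than at stage 12. Of 61 genes from 48 of 53 symbols, 21 were called higher and 4 lower at stage 12 than at stage 9 in epidermal explants. Of all genes 23.2% were called higher there, and 6584 of the 27424 lower. At stage 13, 42 were called higher and 1 lower, against 27.8% and 26.9%. The medians at these stages were 0.86 and 2.62 on the log2 scale against 0.03 and 0.00 over all genes. Directly between stages 12 and 13 edgeR called none of the list, against 0.0% of all genes, and DESeq2 36 higher, against 4.4%. The level of tubb4b, a tubulin of cilia, rose from 135 ± 35.5 TPM to 1409.6 ± 416 TPM, but it stood at 1332 ± 655 TPM in neural explants as well. Against neural, ventral mesoderm and endoderm explants at stage 13, 16, 3 and 39 were called higher, against 2.98%, 0.645% and 15.8% of all genes, and 0, 0 and 2 lower, the last against 17.9%. DESeq2 called 35 of them higher than in ventral mesoderm, against 4.65%, and 45 had an unadjusted p under 0.05 in edgeR. The 3 genes called by edgeR were tekt2.S (log2 fold change 4.06 ± 0.76), cfap52.L (2.17 ± 0.29) and mns1.L (1.63 ± 0.29), of which tekt2.S and cfap52.L were named after their values were seen. Of 25 intraflagellar transport genes, needed for cilia of most kinds, 8 were called higher and 3 lower from stage 9 to 13, against 27.8% and 26.9% of all genes, with a median of 0.13. The share called higher thus lay near that of all genes.

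Of 25 genes of Notch signaling, which limits the number of multiciliated cells, 11 were called higher and 2 lower from stage 9 to 13, against 27.8% and 26.9% of all genes. Against ventral mesoderm at stage 13 edgeR called 0 higher and 1 lower, against 0.645% and 1.15% of all genes. DESeq2 called 2 higher there, against 4.65% of all genes, and 4 lower, a count with no share of all genes beside it. In edgeR 11 had an unadjusted p under 0.05. Hes4.L, a Notch target, rose by 2.22 on the log2 scale (adjusted p = 6.41e-05), and lfng.S, which modifies Notch, fell by 1.08 (0.0132).

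The genes most like each member were ranked by Pearson correlation of log2(TPM + 1) over the 24 group means, among 12449 genes whose mean reached 10 TPM in some group. Closest to mcidas were a gene listed without a symbol (0.942), pou2f3 (0.939), a POU homeobox factor, and foxj1.2 (0.919). Pou2f3 averaged 35.6 ± 18.1 TPM in epidermal, 12.9 ± 2.95 TPM in ventral mesoderm, 0.79 ± 0.15 TPM in neural and 0.79 ± 0.19 TPM in endoderm explants at stage 13. Closest to ccno was rsph6a (0.833), a radial spoke gene of motile cilia, at 38.7 ± 20.9 TPM in epidermal explants. Closest to myb were s100a13 (0.923), tcp11l2 (0.916) and calr (0.911), to foxj1 mid1ip1 (0.871), and to rfx2 fdps (0.855). These ranks depend on the scale: on log2 values of scaled counts (log2 CPM) tcp11l2 was at rank 183 for myb, s100a13 at rank 8, fdps at rank 25 for rfx2, and pdgfa took the first rank for foxj1. Correlations between the members ran from 0.323 for foxj1.2 and rfx2 to 0.919 for mcidas and foxj1.2.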

How the data were processed

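Poly(A) RNA of 12 to 15 pooled explants per sample, from daily fertilizations of a single frog, was sequenced by the authors. Unnormalized counts per gene, deposited by the authors, came from STAR 2.6.0 alignments to genome version 9.2 of X. laevis, and the deposited TPM values from RSEM. The study describes the replicates as biological, and p-values measure the spread between them. The members and gene lists were chosen with earlier results of these data known.

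Genes reaching 15 counts in any library were kept. Counts were fitted with edgeR 4.0.16 in R 4.3.3 (TMM, robust quasi-likelihood F test, only the groups compared, L and S apart, Benjamini-Hochberg adjustment over all 27424 genes, adjusted p at most 0.05), and SEs were worked back from log2 fold change and F. A group at or under 3 counts in every library has no fold given. TPM of L and S were summed, and log2(TPM + 1) was used for plots and correlations. Likeness was ranked with a minimum of 10 TPM. Changes between stages were compared between lineages with an interaction term. Alternatives were DESeq2 1.42.0, other size factors, other filters, L and S summed, a replicate block, 1 fit of all 74 libraries, and each library left out in turn (96 refits). Library size without TMM, and leaving out libraries of the ventral mesoderm stages, were chosen after seeing the data. Counts with a library left out, at an unadjusted p, with library size alone or with another filter have no share of all genes beside them. The test was checked on simulated data with independent libraries, which cannot show how it behaves where libraries pair by replicate.

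Named genes were all members, the 3 genes of highest mean TPM in each list with gmnc, foxn4, e2f4, cdc20b, deup1 (ccdc67) and ccdc78, and the 3 genes most like each member. Same-numbered libraries deviated together between stages in epidermal (r 0.197 to 0.775), neural (0.212 to 0.696) and endoderm explants (0.339 to 0.745), and in ventral mesoderm between stage 9 and stages 10 and 10.5 (0.569 to 0.733). They did not in every pair of the later ventral mesoderm stages (-0.022 to 0.459) or between lineages (-0.123 to 0.161). The block was thus read as pairing only within the first 3 lineages. Block counts that compare lineages or involve ventral mesoderm are given only as alternatives. For 4 of the 5 ventral mesoderm libraries of stage 11 the most alike TPM column had another replicate number, and 70 of 74 libraries matched. These best matches had r of 0.68 to 0.717, apart from count replicate 2 with TPM replicate 4 (0.287). TPM replicate 4 listed mcidas, foxj1.2 and gmnc at 0, while every count library there held at least 27 mcidas counts. That column enters the group means used for plots and correlations. No libraries were duplicates. Gene neighbours were taken from the RefSeq v10.1 annotation, and promoter motifs were not analysed here.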

Additional observations from a re-analysis of the deposited data

Results flagged for a closer look

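Foxj1 in ventral mesoderm at stage 11 had a library far from the other 4: replicate 3 of the TPM table held 35.59 TPM, against 14.5 to 20.4 TPM. This was the only group of more than 3 libraries, so 6 genes were tested for such a library, and chance gives about 1 in 20.

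The change from stage 9 to 13 differed between epidermal and neural explants by a test of the difference itself for mcidas.L (6.41 on the log2 scale), mcidas.S (11.33), foxj1.2.L (5.87), foxj1.2.S (7.0), rfx2.S (1.66), myb.L (5.85) and myb.S (5.08). It differed between epidermal and endoderm explants for mcidas.L (8.51), mcidas.S (9.05), ccno.L (5.93), ccno.S (5.63), foxj1.L (8.97), foxj1.S (6.17), foxj1.2.L (8.62), foxj1.2.S (8.58), rfx2.S (2.29), myb.L (6.3) and myb.S (5.25). The values of mcidas.S and myb.L against neural explants, and of foxj1.2 and myb.L against endoderm explants, involve a group at or under 3 counts in every library and depend on the prior count of the fit. These comparisons share the epidermal libraries.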

How the results depend on the processing

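The call that all 12 genes were higher at stage 13 than at stage 9 in epidermal explants held under every alternative run, and with any 1 library left out the count stayed at 12. From stage 9 to 12 it was 10 to 12 with a library left out and 10 with the replicate block, against 25.5% of all genes. Against endoderm explants the count was 12 at stage 13 and 10 to 12 at stage 12 with a library left out, and 11 to 12 for the difference in change.

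Against ventral mesoderm at stage 13 there were 2 calls, against 0.645% of all genes. They became 12 with DESeq2, against 4.65%, and 12 in 1 fit of all libraries, against 4.9%. The count was 8 with the replicate block, 1 with a mean count of at least 15, and 0 to 12 with a library left out. At stage 12 the count ran from 0 to 4 with a library left out, and was 10 with DESeq2, against 2.58%, and 7 with the block. For the difference in change from stage 9 it was 2 with DESeq2, against 1.08%, and 1 with the block. It was 1 in the fit of all libraries and 0 to 6 with a library left out. Replicate numbers do not pair libraries between lineages or in every pair of ventral mesoderm stages. Ventral mesoderm from stage 9 to 13 gave 7 to 12 with a library left out and 8 with library size only. The block counts, and all other counts here printed without a share of all genes, cannot be set against the whole table.

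Against neural explants the count with a library left out was 4 to 7 at stage 12 and 4 to 11 at stage 13, and 3 to 10 for the difference in change, where library size only gave 4. At stage 12 DESeq2 gave 12, against 9.05% of all genes, the fit of all libraries 11, against 12.1%, and no filter beyond 1 count 4. The replicate block gave 10 at stage 13, a count with no share of all genes beside it, and numbers do not pair libraries between lineages. The counts with library size only and with no filter have no such share either.

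From stage 12 to 13 in epidermal explants the 0 calls became 2 with DESeq2, against 4.4%, and 6 with the replicate block, against 13.9%. The count was 1 in the fit of all libraries and 0 to 9 with a library left out, with no share of all genes beside these counts. Without replicate 1 of stage 12, rfx2.L and rfx2.S turned from below 0 to 0.09 and 0.06, and with a library left out they ran from -0.25 to 0.09 and from -0.27 to 0.06. Of the values of single genes under the alternatives, 2321 kept their direction and call, 132 became called, 91 lost a call and 53 moved. The cause was not tested. Depth limits mcidas, foxj1.2 and myb before stage 11, where single libraries held few counts.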

Other observations

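Markers of other epidermal cell types rose over the same stages. Of 15 genes of ionocytes, the acid- and base-secreting cells of the skin, 8 were called higher and none lower at stage 13 than at stage 9 in epidermal explants, against 27.8% and 26.9% of all genes, with a median log2 fold change of 3.98. Foxi1.L, the ionocyte master regulator, rose by 4.46 ± 0.45 (adjusted p = 0.000102) and ubp1.L by 5.99 ± 0.26 (9.21e-06), both named after their values were seen, while atp6v1a.L and atp6v1a.S, subunits of the proton pump, stood at 0.23 ± 0.24 and -0.47 ± 0.27 and were not called. The paper also places Foxi1 among the upstream regulators of epidermis formation, so its rise is not particular to ionocytes. Ionocyte genes summed to 373, 255.3 and 255.1 TPM in the epidermal libraries of stage 13. The sums were 167, 59.4 and 66.2 TPM in ventral mesoderm, and 56.4, 59.4 and 81.1 TPM in neural explants. In endoderm explants they were 86.5, 89.1 and 138 TPM, more than in every neural library. Of the genes with TPM values, ca12.L, atp6v1a.L and atp6v0d1.L had the highest means over all libraries, at 29.9, 24.6 and 22.8 TPM.

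Of 8 genes of goblet (mucus-secreting) cells, 7 were called higher and none lower from stage 9 to 13, against the same shares. Grhl3.L, a surface ectoderm factor, rose by 4.22 ± 0.53 and agr2.L, which folds mucins, by 7.94 ± 1.09. Against ventral mesoderm at stage 13 neither the ionocyte nor the goblet list held a gene called in either direction with edgeR. At an unadjusted p under 0.05 there were 10 ionocyte and 2 goblet genes. DESeq2 called 8 and 1, all higher in epidermal explants, against 4.65% of all genes. Goblet genes summed to 1095, 697 and 486 TPM in ventral mesoderm and to 2033, 784 and 957 TPM in epidermal explants. Over all libraries grhl3.L and grhl3.S had the highest means of this list, 109 and 126 TPM, followed by agr2.S at 31.9 TPM. The sums are thus not particular to goblet cells. Of the other lists, 4 of 4 genes of basal epidermis and 1 of 3 of small secretory cells were called higher from stage 9 to 13, and 2 of 10 of blood, with 1 lower. The counts of small secretory cells and blood lay near the share of all genes. Of 8 node and floor plate genes, 3 were called lower, against 26.9%, and the others were not called.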
